A study of Mus musculus with 8 samples.

Results

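The genes examined here encode the proteins of the mitochondrial ribosome (mitoribosome). They were taken as every row of the count table whose symbol begins with Mrpl or Mrps followed by a number, without symbols that contain -ps. Of 78 such genes, 77 reached the minimum of 8 counts in total that was set for testing, 48 named for the large subunit (Mrpl) and 29 named for the small subunit (Mrps), out of 26820 genes tested and 55291 rows. The remaining gene, Mrpl53, had a count of 0 in every library, and the member with the fewest counts above the minimum, Mrpl43, had 5306 in total. The rule itself uses names and that minimum, and no difference between the groups. The members were, however, chosen with earlier results of these data known. Libraries were made from ventricles dissected on embryonic day 10.5 from C57BL/6N mice, 4 in each of 2 groups of littermates. Both groups were homozygous for a floxed Pkn2 allele (Pkn2 fl/fl, exon 8 flanked by LoxP sites). The conditional knockout (cKO) embryos also carried XMLC2-Cre, which is driven by a cardiomyocyte promoter, and the control embryos carried no Cre. A control with Cre and without the floxed allele was not analysed here, so effects of Cre and of Pkn2 deletion cannot be told apart.

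The mitoribosome is made in the mitochondrial matrix from ribosomal RNAs encoded by the mitochondrial genome and from proteins that are all encoded in the nucleus, translated in the cytosol and imported. It translates the few proteins that the mitochondrial genome encodes, which are core subunits of the respiratory chain and of ATP synthase. In the embryonic heart mitochondria mature as the ventricle thickens and begins to rely more on oxidative metabolism, and inherited defects in several of these proteins, among them MRPL3, MRPL44 and MRPS22, cause cardiomyopathy in infants. Symbols do not always match the position of the protein: the products of Mrps30 and Mrps18a have been placed in the large subunit, and the product of Mrps36 is now regarded as a component of the 2-oxoglutarate dehydrogenase complex. The groups below follow the symbols.

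Depth was 47559845 to 56660938 counts per library. Pkn2 (ENSMUSG00000004591), the targeted gene, stood at 83.1, 77.6, 79.6 and 84.3 CPM (counts relative to library size, scaled by TMM normalization) in the 4 cKO libraries and at 133, 139, 152 and 153 CPM in the 4 control libraries. The groups did not overlap, and Pkn2 fell to 56.3% of control in RNA that also includes cells in which the driver is not expected to act (log2 fold change -0.83, SE 0.0599, edgeR adjusted p = 7.67e-06; exact two-sided permutation p = 0.0286, the smallest that 70 groupings allow). Of 12 cardiomyocyte markers tested, 8 were lower and 4 higher in cKO with 0 past the threshold. They summed to 41500 to 44700 CPM in cKO and 41600 to 46100 CPM in control. All 12 endothelial and endocardial markers were higher in cKO, 5 of them past the threshold, with sums of 1910 to 2390 CPM against 1500 to 1780 CPM. All 10 macrophage markers were higher, 2 past the threshold, with sums of 12.6 to 41.8 CPM against 7.47 to 12.8 CPM. In edgeR 0 genes passed among 11 erythroid markers (sums of 1390 to 4830 CPM in cKO and 1510 to 4670 CPM in control), 7 epicardial markers (276 to 395 and 370 to 410 CPM) and 9 cushion and fibroblast markers (773 to 940 and 768 to 953 CPM). Of these, 11, 2 and 4 had estimates above 0, in that order. All 9 hepatic and yolk sac markers tested were lower in cKO, with 0 past the threshold. In bulk RNA, fewer cells of a type and less RNA per cell cannot be told apart.

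Transcripts for mitoribosomal proteins were on average slightly lower in cKO ventricles across nearly the whole group. The library means of the 2 groups overlapped, and no single gene passed the edgeR test. In the edgeR fit over all genes, 73 of the 77 genes (94.8%) had a log2 fold change below 0, against 50.2% of all genes tested. These genes varied together within groups (median pairwise correlation 0.65), so counts of genes are not counts of independent observations. In control replicates 2 and 3, 70 and 69 of the 77 lay below their control mean. The median was -0.11, which is 92.8% of the control level, with quartiles of -0.16 and -0.06 and a range of -0.26 to 0.04, beside a median of -0.000846 over all genes tested. Adjusted p was at most 0.05 for 0 of the 77 genes (lowest 0.107), against 0.858% of all genes tested. DESeq2 placed 2 of the 77 past the threshold and limma-voom 0, among 867 and 168 genes past it over all genes. The 2 in DESeq2 are near the share over all genes and are no result about the group. At an unadjusted p under 0.05, 20 genes (26.0%) were lower and 0 were higher in the edgeR fit, against 6.2% and 6.61% of all genes tested. DESeq2 and limma-voom each placed 17 genes lower by this measure, against 5.44% and 6.28% of all genes tested.

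Every mitoribosomal protein gene tested had a mean of at least 10 CPM, so the 9858 genes at that level are a closer background. Of these, 59.2% had a log2 fold change below 0, 11.4% were lower and 8.49% higher at an unadjusted p under 0.05, 1.65% had an adjusted p of at most 0.05, and the median was -0.02. Every cKO library lay below every control library for 7 mitoribosomal genes (9.09%), namely Mrpl32, Mrpl37, Mrpl38, Mrpl40, Mrps2, Mrps27 and Mrps35. The same held for 3.77% of all genes tested and for 7.16% of genes at 10 CPM or more, so this last share was near its background. The 95% intervals of the fold changes limit how large a difference these libraries allow. The lowest bound was -0.47 (Mrps24), and 0 of the 77 intervals reached a 1.5-fold decrease (-0.58 on the log2 scale).

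**Figure D1:**
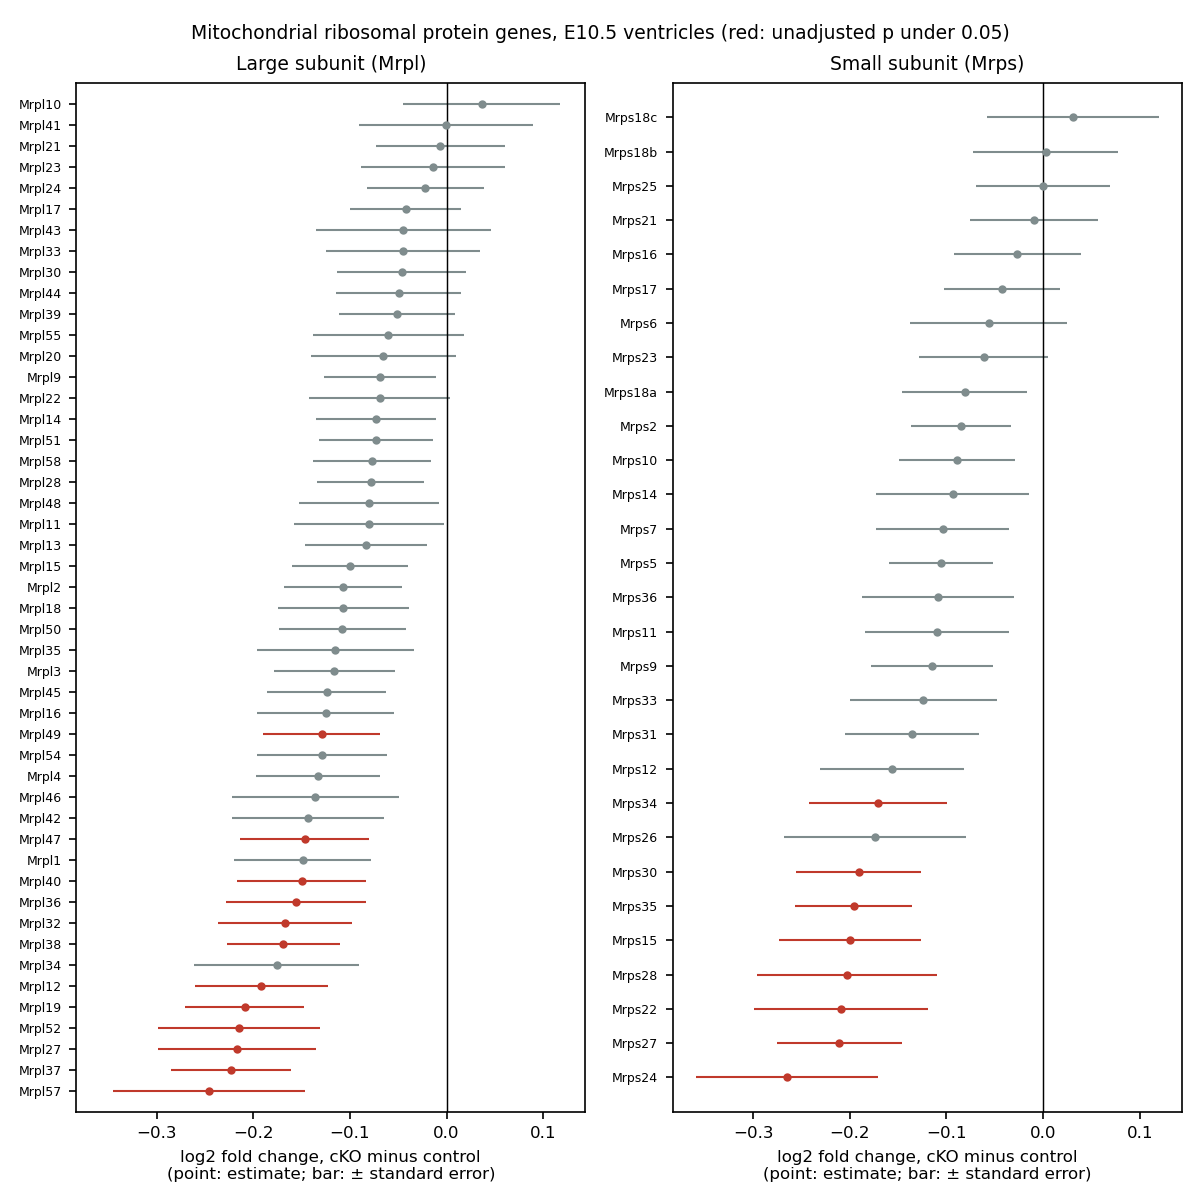
Log2 fold change (cKO minus control, x axis) of each of the 77 mitoribosomal protein genes, with the large subunit on the left and the small subunit on the right. Points are edgeR estimates from 4 libraries per group, bars are ± the standard error, and red marks the 20 genes with an unadjusted p under 0.05. Estimates run from -0.26 for Mrps24 to 0.04 for Mrpl10, and 73 lie below 0.

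Differences were of like size in both subunits. Of the 48 Mrpl genes, 47 had a log2 fold change below 0 and 12 had an unadjusted p under 0.05. Of the 29 Mrps genes, 26 were below 0 and 8 had an unadjusted p under 0.05. The median was -0.11 in each set. Within a library, the mean log2 level of the Mrpl genes minus that of the Mrps genes, relative to control, was 0.00698 ± 0.0145 (SD, n = 4) in cKO and 0.0 ± 0.0162 in control, a difference smaller than the spread between libraries.

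The promoters of these genes are shown because the genes differed together and because nuclear respiratory factor 1 (NRF1), the ETS factor GABPA (also known as NRF2) and YY1 are known regulators of nuclear genes for mitochondrial proteins. RefSeq windows on GRCm38.p6, from 250 bases before to 50 after the transcript start, were matched by symbol for 68 of the 77 genes (74 windows), and Mrpl4, Mrpl13, Mrpl15, Mrpl19, Mrpl38, Mrpl54, Mrps28, Mrps34 and Mrps35 had no entry. Exact letters were searched on both strands, and no string of letters contains another. The NRF1 string CGCNTGCGC, a core of its longer site whose spelling was chosen after these windows were seen, was in 21.6% of the 74 windows, against 6.25% of all 32851 windows and 14.4% of the 10045 windows of genes at 10 CPM or more. In the first, stricter spelling, without an N, it was in 4.05%, against 0.971% and 2.23%. The ETS string CCGGAAG was in 33.8%, against 8.86% and 18.9%. The YY1 string AAGATGGC was in 16.2%, against 2.75% and 4.91%. ETS or YY1 letters were in 45.9% of the windows, or 34 of 74, against 11.2% and 22.7%. Against abundant genes, the GC box GGGCGG was in 52.7% and 65.9%, the E-box CACGTG in 9.46% and 10.4%, CCAAT in 39.2% and 37.6% and TATAAA in 6.76% and 6.55%. A match is a run of letters and not a measured binding site, and nothing in these data bears on binding.

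The 200 bases before the start are printed 5′ to 3′ on the gene's strand for the 2 genes of each subunit with the lowest p that had an entry, with an NRF1, ETS or YY1 string in capitals. Mrpl37 is at chr4:107066867-107067066 (minus strand), Mrpl12 at chr11:120484437-120484636 (plus), Mrps27 at chr13:99344586-99344785 (plus) and Mrps30 at chr13:118387253-118387452 (minus).
Mrpl37: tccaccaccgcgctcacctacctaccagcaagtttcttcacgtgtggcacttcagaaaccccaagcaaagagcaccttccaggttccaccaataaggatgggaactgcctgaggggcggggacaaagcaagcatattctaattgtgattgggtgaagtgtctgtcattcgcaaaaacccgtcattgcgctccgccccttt
Mrpl12: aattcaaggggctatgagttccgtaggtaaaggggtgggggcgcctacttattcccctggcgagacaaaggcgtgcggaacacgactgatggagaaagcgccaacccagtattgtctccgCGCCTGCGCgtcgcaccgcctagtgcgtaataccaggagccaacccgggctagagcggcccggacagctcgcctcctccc
Mrps27: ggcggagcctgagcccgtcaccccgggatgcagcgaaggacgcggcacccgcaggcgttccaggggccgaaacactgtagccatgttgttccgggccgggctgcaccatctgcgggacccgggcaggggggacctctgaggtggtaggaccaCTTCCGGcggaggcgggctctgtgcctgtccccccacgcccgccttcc
Mrps30: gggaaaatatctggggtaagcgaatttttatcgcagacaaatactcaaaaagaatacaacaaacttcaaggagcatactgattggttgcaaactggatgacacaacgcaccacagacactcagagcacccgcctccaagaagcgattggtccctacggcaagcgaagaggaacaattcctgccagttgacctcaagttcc
In this stretch the Mrpl12 promoter held an NRF1 string and the Mrps27 promoter an ETS string on the opposite strand, and the other 2 held no NRF1, ETS or YY1 string. Windows of 60 bases follow for 3 further genes, taken as the gene with the lowest p that was not yet shown and held the string before its start, at least 30 bases into the window and ending at least 20 bases before the start: Mrpl57 for NRF1 (chr14:57826156-57826215, plus strand), Mrpl27 for ETS (chr11:94653709-94653768, plus) and Mrpl36 for YY1 (chr13:73330949-73331008, plus). Capitals mark the string.
Mrpl57: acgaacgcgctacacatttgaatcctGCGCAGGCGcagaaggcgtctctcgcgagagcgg
Mrpl27: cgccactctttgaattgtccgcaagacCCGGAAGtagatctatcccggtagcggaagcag
Mrpl36: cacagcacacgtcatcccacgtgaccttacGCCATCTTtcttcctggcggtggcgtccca

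Among large-subunit genes, Mrpl37 (ENSMUSG00000028622, chr4:107055874-107066868 on GRCm38), which encodes a protein specific to mitochondrial ribosomes, had the lowest p. It stood at 60.7, 63.4, 66.0 and 56.4 CPM in cKO and at 75.9, 68.5, 69.1 and 74.1 CPM in control. All 4 cKO libraries lay below all 4 control libraries. The mean was 14.3% lower (61.6 ± 4.09 against 71.9 ± 3.68 CPM, SD, n = 4), with a log2 fold change of -0.22 (SE 0.0618), but the adjusted p was 0.107. Mrpl19 encodes a homologue of bacterial L19. It read 58.3, 58.2, 62.4 and 53.7 CPM in cKO and 68.9, 61.9, 67.1 and 70.9 CPM in control, where 1 cKO library exceeded the lowest control library (log2 fold change -0.21, SE 0.0619, adjusted p = 0.13). DESeq2 placed these 2 genes past the threshold, with adjusted p of 0.0306 and 0.0476, and the edgeR fit without cKO replicate 3 placed them past it with 0.0396 and 0.0487. Over all genes DESeq2 placed 867 past it and the fit without cKO replicate 3 placed 744, against 230 in the main fit.

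Mrpl38, Mrpl12 and Mrpl27 were the next by p. Mrpl38 read 59.6 to 66.8 CPM in cKO and 67.9 to 74.7 CPM in control, without overlap, for a log2 fold change of -0.17 (adjusted p = 0.207). Mrpl12 forms the flexible stalk that engages translation factors. It read 159, 180, 178 and 153 CPM in cKO and 206, 179, 179 and 201 CPM in control. The values in cKO replicates 1 and 4 were the lowest, those in cKO replicates 2 and 3 were close to control replicates 2 and 3, and the log2 fold change was -0.19 (SE 0.0688, adjusted p = 0.228). Mrpl27, a homologue of bacterial L27 near the peptidyl transferase centre, had a log2 fold change of -0.22 (SE 0.0819, adjusted p = 0.258). Mrpl57, which had the lowest estimate in this subunit, read 19.4, 26.3, 27.6 and 22.5 CPM in cKO and 30.7, 26.8, 25.8 and 30.2 CPM in control (-0.25, SE 0.0992, adjusted p = 0.298), and the groups overlapped.

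Other large-subunit genes were taken for their role or for a high estimate. Mrpl10, which anchors the Mrpl12 stalk, was the large-subunit gene with an estimate above 0. It read 60.4, 65.5, 54.7 and 47.2 CPM in cKO and 57.0, 53.9, 53.6 and 57.4 CPM in control, and the cKO libraries lay on both sides of the control range (log2 fold change 0.04, 95% interval -0.14 to 0.21). Mrpl11, also at the stalk base, had -0.08 (interval -0.25 to 0.08). Mrpl3, whose product lies near the peptidyl transferase centre, read 64.3, 67.8, 74.9 and 63.2 CPM in cKO and 75.5, 69.9, 71.3 and 76.2 CPM in control (-0.12, SE 0.0626, adjusted p = 0.475). Here cKO replicate 3 was within the control range and the other 3 cKO libraries lay below it. Mrpl44, a protein related to ribonuclease III, had -0.05 (interval -0.19 to 0.09), and Mrpl41 had -0.000719 (interval -0.19 to 0.19).

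Among small-subunit genes, Mrps27 (ENSMUSG00000041632, chr13:99344786-99415562), a pentatricopeptide repeat protein, had the lowest p. It stood at 47.6, 47.9, 50.9 and 41.8 CPM in cKO and at 57.7, 53.3, 53.5 and 53.2 CPM in control. The groups did not overlap, and the mean was 13.6% lower in cKO (47.1 ± 3.8 against 54.4 ± 2.15 CPM), with a log2 fold change of -0.21 (SE 0.0648, adjusted p = 0.146). Mrps35 (ENSMUSG00000040112, chr6:147042764-147073991) read 41.7, 45.3, 45.3 and 45.6 CPM in cKO and 51.1, 46.9, 53.4 and 52.5 CPM in control, again without overlap (-0.20, SE 0.0605, adjusted p = 0.148). Mrps30 and Mrps15 had log2 fold changes of -0.19 and -0.20 (adjusted p = 0.198 and 0.241). Mrps24, a homologue of bacterial S3 at the messenger RNA entry, had the lowest estimate of all 77 genes. It read 21.3, 26.2, 28.2 and 25.4 CPM in cKO and 35.4, 31.1, 27.3 and 27.7 CPM in control, and cKO replicate 3 was above 2 of the control libraries (-0.26, SE 0.0945, adjusted p = 0.225).

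Other small-subunit genes were taken for their role. Mrps12, a decoding-centre protein, read 26.6, 31.3, 34.4 and 30.8 CPM in cKO and 34.9, 35.8, 32.7 and 33.8 CPM in control (-0.16, SE 0.0745, adjusted p = 0.398), and cKO replicate 3 lay within the control range. Mrps2 had a difference that was small but without overlap, at 55.7, 56.5, 57.8 and 58.3 CPM in cKO against 59.5, 61.9, 62.0 and 58.9 CPM in control (-0.08, SE 0.0517, adjusted p = 0.552). Mrps5 and Mrps7, homologues of bacterial S5 and S7, had log2 fold changes of -0.11 and -0.10 (adjusted p = 0.434 and 0.595). Mrps22 read 33, 35.8, 42.7 and 29.9 CPM in cKO and 43.3, 37.9, 40.0 and 42.1 CPM in control (-0.21, SE 0.0902, adjusted p = 0.339). Its cKO replicate 3 was again the exception, and without that library the adjusted p was 0.0382. That fit placed 744 genes past the threshold over all genes, against 230 in the main fit. No member passed in the other fits that left out a library.

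The 3 Mrps18 paralogues, which descend from a single bacterial S18 gene, had estimates close to 0. Log2 fold changes were -0.08 for Mrps18a (interval -0.22 to 0.06), 0.00254 for Mrps18b (interval -0.16 to 0.16) and 0.03 for Mrps18c (interval -0.16 to 0.22). Mrps18c read 13.8, 13.6, 13.4 and 12.4 CPM in cKO and 14.4, 12.3, 11.7 and 13.6 CPM in control. Its locus overlaps Gm43511 on the same strand, and whether reads went unassigned there was not tested. Mrps25 (8.3e-05) was the third small-subunit gene with an estimate above 0, and Mrps36 had -0.11 (adjusted p = 0.64). Differences between the paralogues were not tested.

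Per transcript length, the genes span a wide range although most of their products are present as a single copy in each ribosome. In the authors' TPM table, in which counts are scaled for transcript length and library size, control means ran from 15 TPM for Mrpl17 to 368 TPM for Mrpl42, a 24.6-fold range, with a median of 68.5 TPM and quartiles of 43.7 and 88.3. In the small subunit they ran from 16.4 TPM (Mrps25) to 222 TPM (Mrps21). Mrpl42 stood at 368 ± 22.0 TPM (SD, n = 4) in control and 339 ± 34.3 TPM in cKO, a difference within the spread, and Mrpl12 at 258 ± 14.1 and 231 ± 18.2 TPM. At the low end, Mrpl17 (15 ± 0.742), Mrpl57 (16.1 ± 0.961), Mrps25 (16.4 ± 1.64) and Mrps26 (17.3 ± 1.45) overlapped one another, with control libraries between 13.9 and 18.6 TPM. Means were lower in cKO for 69 of the 77 genes on this scale. The median level of cytosolic ribosomal protein genes was 1130 TPM, and that of nuclear oxidative phosphorylation genes was 302 TPM. Mrpl53, at a count of 0, was listed at 33.5, 42.2, 42.9 and 22.2 TPM in cKO and at 23.8, 40.6, 36.2 and 20.7 TPM in control, so the 2 tables treat it differently (exact permutation p = 0.514 on TPM). Its locus overlaps Gm42688 on the same strand.

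**Figure D2:**
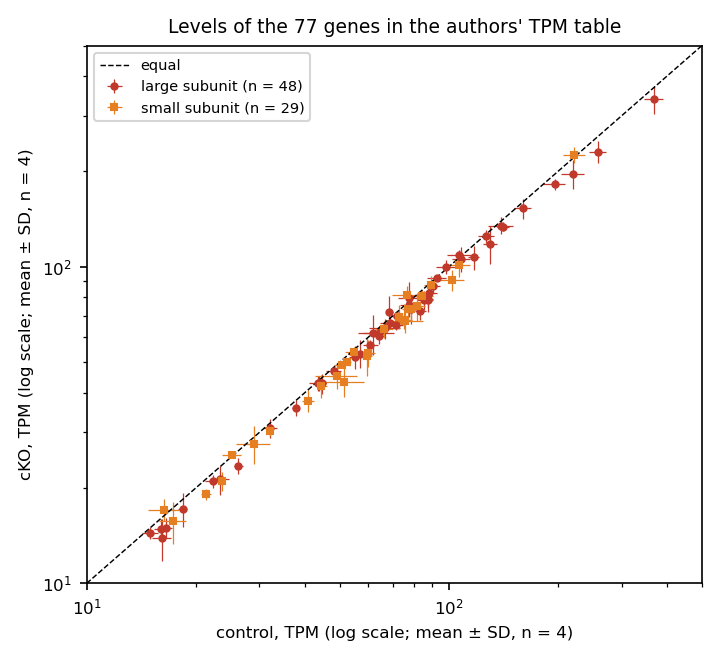
Mean level of each of the 77 genes in control (x axis) and cKO ventricles (y axis) in TPM, both on log scales, with bars of ± SD over 4 libraries. Circles are large-subunit and squares small-subunit genes. The levels span 15 to 368 TPM in control and most points sit just under the dashed line of equality.

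The shift was uneven across the cKO libraries. The mean log2 CPM of the 77 genes, relative to the control mean, was -0.17, -0.08, -0.000478 and -0.19 in cKO replicates 1 to 4 and 0.07, -0.07, -0.06 and 0.06 in control replicates 1 to 4. The groups overlapped, since cKO replicate 3 was at the control mean and cKO replicate 2 was beside control replicates 2 and 3. Of the 77 genes, 73, 67, 37 and 75 lay below their control mean in the 4 cKO libraries, against 8, 70, 69 and 11 in the control libraries. The lowest value of the 8 libraries was in cKO replicate 4 for 42 genes and in cKO replicate 1 for 22, and in cKO replicate 3 for 0. Summed over the 77 genes, the level was 3660 ± 224 CPM in cKO and 3960 ± 209 CPM in control, or 92.5%. Leaving out cKO replicate 3 moved the median log2 fold change from -0.11 to -0.15, and leaving out cKO replicate 4 moved it to -0.06. The number of genes lower at an unadjusted p under 0.05 was 40 without cKO replicate 3, 8 without cKO replicate 1, 12 without cKO replicate 4, 6 without control replicate 1 and 10 without control replicate 4. The shares over all genes tested in these fits were 7.26%, 4.37%, 5.55%, 4.76% and 4.72%, in that order.

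**Figure D3:**
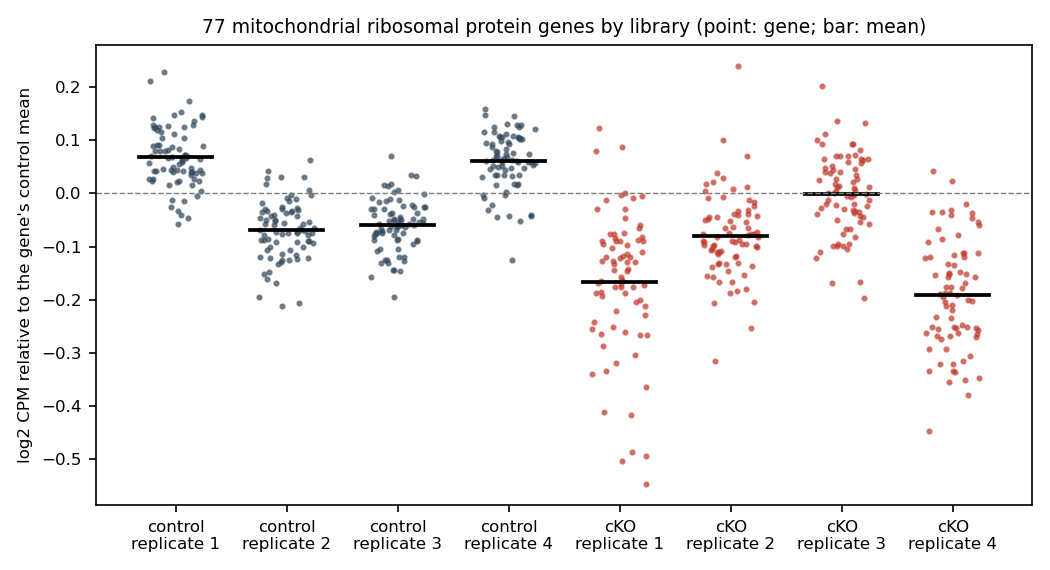
Each point is a gene's log2 CPM in that library minus its mean over the 4 control libraries (y axis), for 77 mitoribosomal protein genes in 8 libraries (x axis), and black bars are library means. Control replicates 1 and 4 lie above 0 and control replicates 2 and 3 below it, while cKO replicates 1 and 4 are lowest at -0.17 and -0.19 and cKO replicate 3 is at -0.000478.

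The genes varied together from library to library within each group. After the group means were removed, the median Pearson correlation over the 2926 pairs of genes was 0.65 across the 8 libraries, and 93.9% of pairs were positive. It was 0.68 among Mrpl genes, 0.57 among Mrps genes and 0.64 between an Mrpl and an Mrps gene. Cytosolic ribosomal protein genes had 0.78, nuclear oxidative phosphorylation genes 0.55 and genes at 10 CPM or more 0.01. All genes of a library share its RNA, depth and scaling, so these values are a description. The cKO libraries with the lowest mitoribosomal level were those with the highest endothelial level: endothelial and endocardial markers stood at 0.58, 0.24, 0.20 and 0.64 in cKO replicates 1 to 4, relative to control on the log2 scale, with control libraries at 0.06, 0.04, -0.17 and 0.07. The control libraries did not follow this order, since control replicates 1 and 4 had the highest level of both. Cardiomyocyte markers stood at -0.05, -0.04, -0.02 and -0.07 in cKO and between -0.07 and 0.06 in control. Macrophage markers stood at 2.74, 1.19, 0.85 and 1.78 in cKO. In control replicate 1 the hepatic and yolk sac markers were at 2.05, with 9 of 10 tested and Alb under the minimum, and they summed to 3.32 to 31.8 CPM over the control libraries and 1.68 to 3.53 CPM in cKO. The part of these cells in the mitoribosomal shift was not tested.

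The genes of the cytosolic ribosome were centred near 0. Cytosolic ribosomal protein genes had a log2 fold change below 0 for 42 of 81, a median of -0.00224 and 3 genes lower at an unadjusted p under 0.05, with 0 past the threshold in edgeR or DESeq2. By library their level, relative to control, was -0.06, -0.02, 0.05 and 0.05 in cKO and 0.13, -0.11, -0.09 and 0.07 in control. Nuclear genes for oxidative phosphorylation subunits lay between the 2 ribosomes, with 68 of 86 below 0, a median of -0.06, and 16 lower and 5 higher at an unadjusted p under 0.05. In edgeR 1 of the 86 passed the threshold, Uqcrc1, a core subunit of complex III, which was lower in cKO (-0.24, SE 0.0515, adjusted p = 0.0404). The share past it was 0.858% of all genes tested and 1.65% of genes at 10 CPM or more. DESeq2 placed 5 of the 86 past it in either direction, against 867 of 26820 over all genes. The adjusted p of Uqcrc1 was 0.0199 to 0.157 with a library left out, and it missed the threshold without cKO replicate 1, cKO replicate 2 or any 1 of the control libraries. It also missed it with the replicate number as a block (adjusted p = 0.0612) and in the limma fits on TPM (0.109 to 0.174). The 13 protein-coding transcripts of the mitochondrial genome, which the mitoribosome translates, had 7 below 0, a median of -0.03, 0 at an unadjusted p under 0.05 and 0 past the threshold in edgeR or DESeq2. Differences between groups of genes were not tested.

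**Figure D4:**
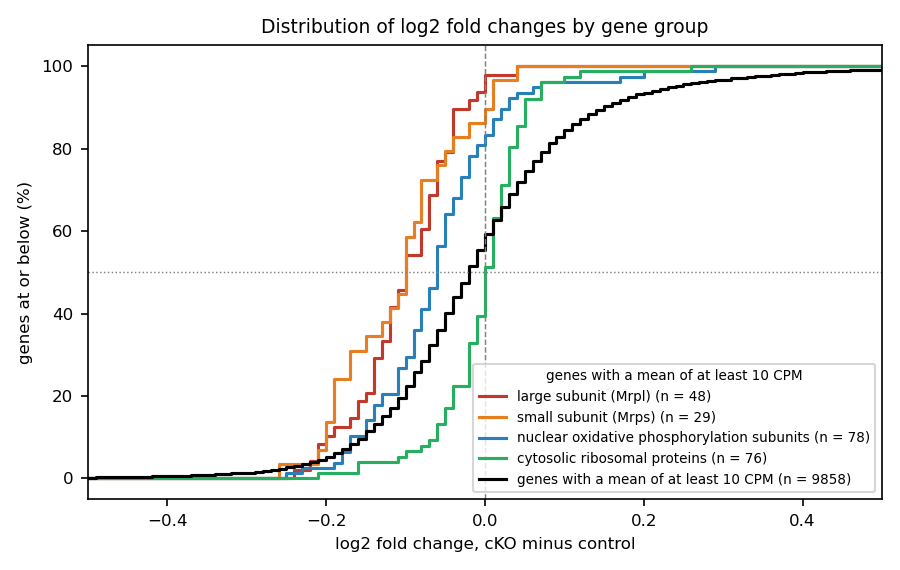
Cumulative share of genes (y axis, percent) at or below a given log2 fold change, cKO minus control (x axis), for genes with a mean of at least 10 CPM. The large (n = 48) and small (n = 29) mitoribosomal subunits cross 50% near -0.11, oxidative phosphorylation genes (n = 78) near -0.06, and all genes at that level (n = 9858) and cytosolic ribosomal protein genes (n = 76) near 0.

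Genes that build or serve the mitoribosome mostly had estimates below 0 as well. Of genes at 10 CPM or more, 59.2% did so and 11.4% were also at an unadjusted p under 0.05, and shares near these are no result about a list. In the lists that follow 0 genes passed the threshold in edgeR, and DESeq2 placed Tufm, Mpv17l2 and Mycn past it, with adjusted p of 0.0329, 0.0205 and 0.0455. Over all genes DESeq2 placed 867 of 26820 past it, so these calls are no result about the lists. Mitoribosomal proteins with other symbols were below 0 for 5 of 5 tested (6 listed), with a median of -0.13 and 2 at an unadjusted p under 0.05. These were Gadd45gip1, at -0.23 (adjusted p = 0.226), and Ptcd3, a pentatricopeptide repeat protein, at -0.15 (adjusted p = 0.235). Mitochondrial translation factors were below 0 for 14 of 15 tested (18 listed), with a median of -0.10 and 3 at an unadjusted p under 0.05. Tsfm and Tufm, which encode mitochondrial elongation factors, were each without overlap between groups. Tsfm read 32.8, 36.4, 39.1 and 36.5 CPM in cKO and 41.9, 41.9, 39.8 and 44.6 CPM in control (-0.22, adjusted p = 0.139). Tufm read 151, 153, 156 and 148 CPM in cKO and 171, 162, 169 and 177 CPM in control (-0.16, adjusted p = 0.169). For Tufm even cKO replicate 3 lay below the control range.

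Mitochondrial aminoacyl-tRNA synthetases, which charge the tRNAs, were below 0 for 19 of 20, with a median of -0.08 and 5 at an unadjusted p under 0.05, among them Yars2 (-0.21, adjusted p = 0.188). Estimates in this list ran from -0.21 to 0.29. Lars2, named after its values were seen, passed the threshold without control replicate 1 only, in a direction that is not given here. Assembly and rRNA modification factors were below 0 for 23 of 28, with a median of -0.06 and 2 (7.14%) at an unadjusted p under 0.05, a share near the background. Mpv17l2, an assembly factor, read 8.65, 9.31, 8.87 and 7.84 CPM in cKO and 11.6, 10.6, 10.9 and 10.5 CPM in control, without overlap (-0.33, SE 0.0947, adjusted p = 0.115). The pseudouridine synthase Trub2 had -0.14 (adjusted p = 0.356). Genes for mitochondrial transcription and DNA maintenance were below 0 for 9 of 14 (64.3%), near the background, with a median of -0.05 and 2 at an unadjusted p under 0.05, Tfb2m (-0.26, adjusted p = 0.146) and Mgme1 (-0.20, adjusted p = 0.218). Tfb2m passed the threshold without cKO replicate 3 (adjusted p = 0.039), where 744 genes passed over all genes. Of 11 regulators of nuclear mitochondrial genes, 8 were below 0, with a median of -0.02, and 4 were lower and 1 higher at an unadjusted p under 0.05.

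The 2 regulators with the lowest p, both MYC family genes known to act on ribosome and mitochondrial gene expression, had estimates of opposite sign. Myc read 34.7, 20.6, 15.9 and 44.6 CPM in cKO and 16.7, 14.1, 18.0 and 17.1 CPM in control (log2 fold change 0.81, SE 0.223, adjusted p = 0.104). The values in cKO replicates 1 and 4 were the highest, and cKO replicate 3 lay within the control range. The estimate was 1.02 without cKO replicate 3 (adjusted p = 0.00816) and 0.53 without cKO replicate 4 (adjusted p = 0.224), and with the replicate block it was 0.71 (adjusted p = 0.0403). Mycn read 51.5, 61.9, 56.8 and 72.4 CPM in cKO and 74.1, 71.4, 73.8 and 74.2 CPM in control (-0.27, SE 0.0814, adjusted p = 0.13). Here cKO replicate 4, and not replicate 3, reached the control range, and without it the estimate was -0.36 (adjusted p = 0.0112). With the length and GC trend removed the adjusted p was 0.047. With no filter on low counts both genes passed the threshold (adjusted p = 0.000748 for Myc and 0.0274 for Mycn). Over all genes, 744 passed without cKO replicate 3, 231 without cKO replicate 4 and 380 with the replicate block. With the length and GC trend removed 390 passed, and with no filter on low counts 878.

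**Figure D5:**
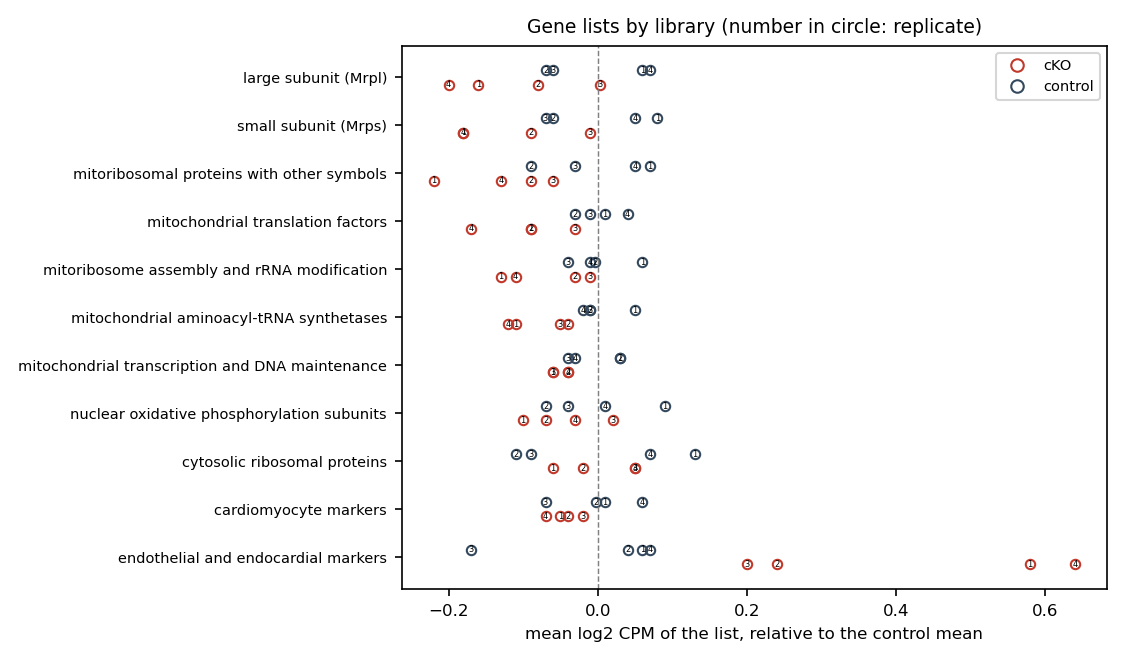
Mean log2 CPM of each gene list relative to its control mean (x axis), with a circle per library numbered by replicate, red for cKO and dark for control. Mitoribosomal lists are lowest in cKO replicates 1 and 4, cytosolic ribosomal protein genes overlap between groups, and endothelial and endocardial markers are highest in cKO replicates 1 and 4 (0.58 and 0.64).

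The positions, overlaps, length and GC content of the members are described here, and their part in the shift was not tested. The 77 genes lie on 17 chromosomes, with 11 on chromosome 11 and 8 on chromosome 17. By the annotation's coordinates, 33 overlap another gene, 9 on the same strand and 27 on the opposite strand. The 44 genes without an overlap were below 0 in 44 of 44, with a median of -0.11, against 59.2% below 0 among genes at 10 CPM or more. Among these 44, Mrpl41 (-0.000719) and Mrps21 (-0.01) were close to 0, and their signs turned in some of the alternative fits. Mrpl10, Mrps18b, Mrps18c and Mrps25, the members with an estimate above 0, each overlap another gene. A tested gene within 1000 bases in head-to-head orientation was found for 23 of the 77 (29.9%), against 16.5% of genes at 10 CPM or more. A single pair of this kind joins both subunits: the starts of Mrpl46 and Mrps11 are 30 bases apart, and their log2 fold changes were -0.14 and -0.11. Transcripts were short, with a median length of 1820 bases against 3673 for genes at 10 CPM or more, and their GC content was 49.22% against 50.04%. After a trend over length and GC was removed from every library, the median was -0.09, 72 of 77 genes were below 0 and 18 were lower at an unadjusted p under 0.05. Over all genes in that fit, the shares were 50.8% and 7.13%.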

How the data were processed

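Bulk poly(A) RNA-seq was measured in 8 ventricle samples, 4 cKO and 4 control. Per the labels and the methods, the authors trimmed paired-end reads (Trim Galore 0.6.7), aligned them with HISAT2 2.2.1 to GRCm39 and deposited raw featureCounts counts per gene and StringTie 2.2.1 TPM values. The gene positions in the TPM table lay within 1000 bases of GRCm38 positions for 85.83% of 37782 genes and of GRCm39 positions for 3.26%, so positions are given as GRCm38. Whether the counting used strand is not given in the sources used here, so reads of overlapping genes cannot be told apart. The labels give the read length in 2 ways.

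Genes whose counts summed to 8 or more were tested with edgeR 4.0.16 (quasi-likelihood, TMM, condition only, 2-sided, Benjamini-Hochberg over 26820 genes, R 4.3.3). CPM are TMM-scaled. Library levels are log2 CPM with a prior count of 2. DESeq2 1.42.0, limma-voom (limma 3.58.1), limma on log2(TPM + 1) or log2(TPM + 0.1), other filters and scalings, a length and GC trend (loess span 0.3) and leaving out each library were alternatives. Duplicate symbols (240 rows) of the TPM table were left out. Scripts were tested on simulated data. The members and lists were chosen with earlier results of these data known. Named members were the 5 lowest p, the 2 highest estimates and the 2 highest and 2 lowest TPM levels in each subunit, with a set of members chosen by role, 30 in all. For each other list they were the genes past the threshold, or otherwise the 2 with the lowest p, of which 1 is not reported here. The 7 genes without overlap between groups, the genes with no count or with an overlapping locus, and Mrpl36 among the printed promoter sequences, were named after their values were seen. The NRF1 string was shortened and given an N after the windows were seen. Replicates of a group differed by more than counting noise (chi-square per degree of freedom 12.0 to 39.1). Replicate numbers are shared between groups, and the deviations of same-numbered samples correlated at -0.19, -0.03, 0.01 and -0.14 over 14302 genes, so the numbers were not taken as pairs.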

Additional observations from a re-analysis of the deposited data

Results flagged for a closer look

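In 4 of 68 groups of 4 libraries tested, over the 30 named members, Pkn2 and the mean levels of both subunits and of all members (5.88%), a single library stood apart from the other 3, with a gap above Dixon's critical value. Chance flags about 1 in 20 such groups. Mrpl41 read 39.1 CPM in control replicate 1, above 32.9 to 33.6 CPM in the other control libraries. Mrps27 read 57.7 CPM in control replicate 1, above 53.2 to 53.5 CPM. Mrps35 read 41.7 CPM in cKO replicate 1, below 45.3 to 45.6 CPM in the other cKO libraries. Mrps5 read 76.6 CPM in cKO replicate 3, above 71.4 to 71.6 CPM.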

How the results depend on the processing

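Pkn2 stayed lower past the threshold under all 20 alternatives (log2 fold change -0.86 to -0.80 when a library was left out). The count of members past the threshold was 0, but 2 with DESeq2 (Mrpl37 and Mrpl19) and 0 to 3 when a library was left out, the 3 being Mrpl37, Mrpl19 and Mrps22 without cKO replicate 3. Over all genes, 867 passed with DESeq2 and 744 without cKO replicate 3, against 230 in the main fit. Members lower at an unadjusted p under 0.05 numbered 20, but 10 on log2(TPM + 1), 10 on log2(TPM + 0.1), 12 on log2(TPM + 1) with a mean of at least 1 TPM, and 6 to 40 when a library was left out. Over all genes the shares were 6.2% in the main fit and 4.55%, 4.65% and 5.71% in the TPM fits, in that order. They were 4.37% to 7.26% with a library left out. Members below 0 numbered 69 to 74 under the 12 other alternatives and 67 to 76 with a library left out. The shares of all genes below 0 were 44.8% to 51.4% and 48.9% to 50.4%. The median over members was -0.11 to -0.08 and -0.15 to -0.06. Members without overlap between groups numbered 7, but 6 with filterByExpr and in the 3 TPM fits, and 8 to 24 with a library left out (24 without cKO replicate 3, 12 without control replicate 2, 11 without control replicate 3), where fewer libraries make separation easier. The shares over all genes were 4.3% with filterByExpr and 2.49% to 3.52% in the TPM fits. With a library left out they were 4.5% to 6.86%, the highest without cKO replicate 3. With the replicate number as a block, 0 members passed the threshold, 16 were lower at an unadjusted p under 0.05 and the median was -0.11, and with the length and GC trend also removed these were 0, 15 and -0.09. Over all genes, 5.0% and 5.81% were lower at an unadjusted p under 0.05 in these fits. The block moved the count over all genes from 230 to 380. Signs turned for 6 named members with estimates near 0, in 35 of 600 results. Mrpl41 read 0.01 with DESeq2, with its size factors in edgeR, with filterByExpr, with the length and GC trend removed and with no filter, 0.03 in the 3 TPM fits, and -0.07 to 0.09 with a library left out. Mrps18b read -0.02 in the 3 TPM fits and -0.03 to 0.04 with a library left out. Mrps21 read 0.00166 with filterByExpr, 0.02 in the 3 TPM fits and -0.05 to 0.04 with a library left out. Mrps25 read -0.01 with the length and GC trend removed, alone or with the block, -0.00377 with limma-voom, -0.000475 with the replicate block, and -0.02 to 0.05 with a library left out. With a library left out Mrpl10 read -0.03 (without cKO replicate 2) to 0.12 and Mrps18c -0.02 (without control replicate 3) to 0.09. The cause was not tested. Members had 5306 to 73837 counts over the 8 libraries, which sets the counting error behind each value.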

Other observations

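The following locus was outside the rule and was chosen after its values were seen. Mrpl27-ps, a pseudogene symbol, had 208, 214, 30 and 53 counts in cKO and 55, 39, 70 and 46 counts in control (log2 fold change 1.34, edgeR adjusted p = 0.214). The high values were in cKO replicates 1 and 2 only, and reads shared with Mrpl27 cannot be told apart from its own. Mrpl48-ps, the pseudogene symbol with the most counts (1065 in total), read 105 to 134 counts in cKO and 118 to 178 in control (-0.179, adjusted p = 0.778).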
